A study of Mus musculus with 15 samples.

Results

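The mitochondrial carrier family of the mouse kidney was followed over adult life. Its members were taken by name: every gene of the deposited transcript table whose symbol begins with Slc25a, together with Ucp1, Ucp2 and Ucp3. There were 51 such genes, including the pseudogene Slc25a5-ps, among 33058 named genes. No measured value enters this rule, although it was set with earlier results of these data known. The level of a gene is the sum of the FPKM (fragments per kilobase, a level corrected for transcript length and library size) of its transcripts that match, lie within, share a splice junction with or overlap an annotated transcript. The family had 295 such transcripts, of which 237 were annotated and 58 were assembled from the reads with at least 1 junction in common with an annotated transcript. Another 38 transcripts, 31 of them lying inside an intron, were left out. The animals were male C57BL/6 mice (C57BL/6J in the study's methods) with no genetic change and no treatment, 5 at 3 months of age, 5 at 12 months and 5 at 24 months, and the kidney of each gave 1 library. Ribosomal RNA was removed per the labels, whereas the methods describe selection of polyadenylated RNA, and which was done cannot be told from these sources. Mice are named here by the numbers in their labels, 5 to 9 at 3 months, 17 to 21 at 12 months and 31 to 35 at 24 months.

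Most of the carriers are small proteins of the inner mitochondrial membrane. Each is built from repeated pairs of membrane helices that form a single transport path, and most of them exchange a substrate of the matrix for a substrate of the cytosol. They bring in ADP, phosphate, amino acid-derived intermediates, cofactors and iron, and they send out ATP and citrate. The uncoupling proteins belong to the same family, and Ucp1 lets protons leak back across the membrane in brown fat. Kidney tubules reabsorb solutes at the cost of ATP and are among the cells richest in mitochondria, and the proximal tubule also makes glucose and ammonia from substrates that pass through these carriers.

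The libraries held between 5.03 and 8.03 Gb of aligned bases. Their medians were 6.04 Gb at 3 months, 7.17 Gb at 12 months and 7.00 Gb at 24 months, so the youngest mice were sequenced least. The values are not counts and give no counting error, so the precision is that of the spread between 5 mice. The label of the tissue held: Umod of the thick ascending limb averaged 886 FPKM and Slc34a1 of the proximal tubule 868 FPKM at 3 months, and the markers of skeletal muscle summed to at most 0.608 FPKM in any mouse. Slc5a2, the glucose transporter of the early proximal tubule, was lower at 24 months than at 3 months (58.1 ± 6.82 against 86.6 ± 13.4 FPKM, SD, n = 5 each, adjusted p = 0.0703, limma), while Slc34a1, Lrp2 and Slc22a6 had adjusted p between 0.726 and 0.939. In whole kidney, fewer cells of a type and less RNA per cell cannot be told apart.

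The carriers of this tissue differed widely in level. Slc25a5, the ADP/ATP carrier that is used outside heart and muscle, led with 297 FPKM over the 15 mice. Slc25a3, the phosphate carrier, followed with 166 FPKM and Slc25a39, which brings glutathione into the matrix, with 157 FPKM. These 3 genes alone made up 52.3% ± 2.48 (SD, n = 5) of the FPKM of the family at 3 months and 50.7% ± 1.40 at 24 months. Next came Slc25a10, which exchanges dicarboxylates for phosphate, with 72.3 FPKM, Slc25a25, a calcium-regulated carrier of ATP-Mg and phosphate, with 44.3 FPKM, and Slc25a42, which carries coenzyme A, with 43.5 FPKM. These levels count all transcripts of a gene. At 3 months, transcripts that GENCODE types as protein-coding held 98.6% of Slc25a5 but 52.9% of Slc25a10 and 50.1% of Slc25a25. Over those transcripts the order can differ. Slc25a25 averaged 23.3 FPKM at 3 months and 29.3 at 24 months, and Slc25a4 27.6 and 24.7. In all, 21 members averaged at least 10 FPKM and 39 at least 1 FPKM over all transcripts. The other 12 were below 1 FPKM, among them Ucp1, Ucp3, the testis ADP/ATP carrier Slc25a31 and the ornithine carrier Slc25a2, and 6 members were listed at 0 in at least 1 mouse.

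**Figure D1:**
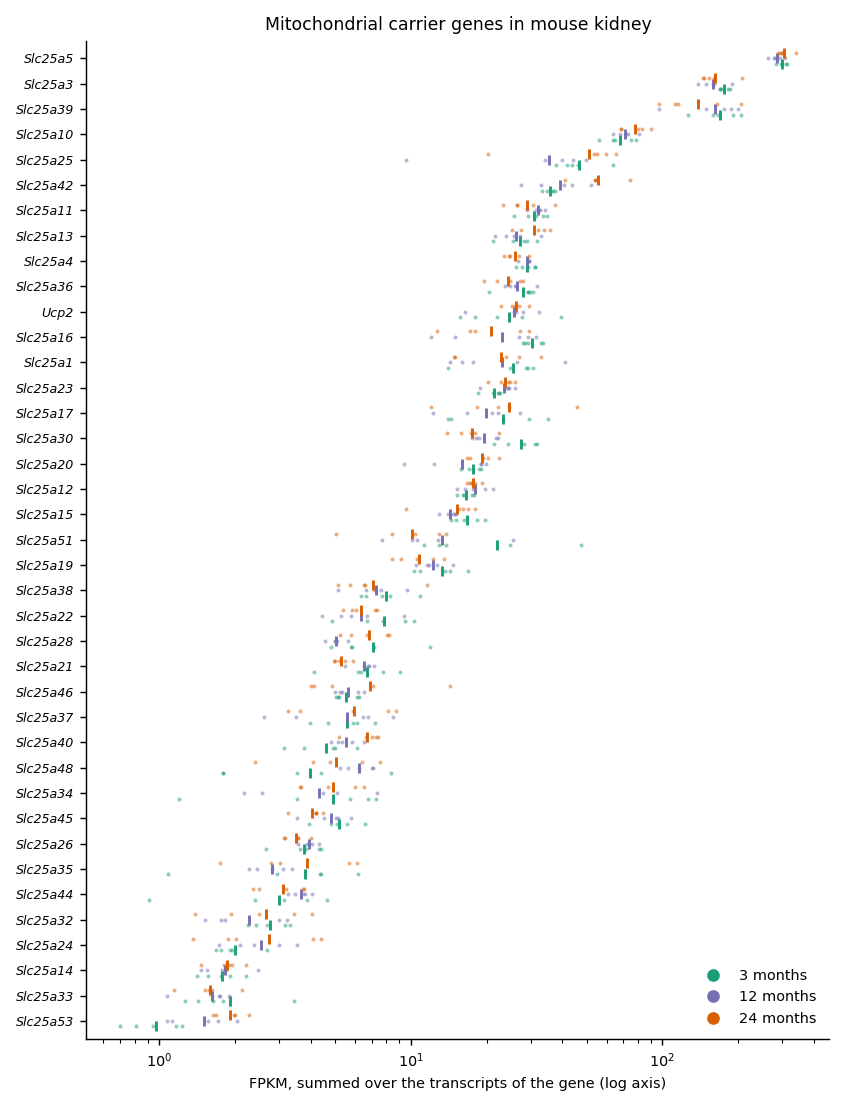
FPKM of the 39 carrier genes that averaged at least 1 FPKM, on a log axis. Each point is 1 mouse and each vertical mark the mean of the 5 mice of an age, with 3 months in green, 12 months in purple and 24 months in orange. Slc25a5, Slc25a3 and Slc25a39 lie apart at the top, with means of 297, 166 and 157 FPKM over the 15 mice.

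Members also differed in how steady they were. The coefficient of variation between mice of the same age, taken as the median of the 3 ages, was 5.78% for Slc25a5, 6.45% for Slc25a12 and 7.59% for Slc25a4, the ADP/ATP carrier of heart and muscle. Among the 39 members with a mean of at least 1 FPKM, it was highest for Slc25a51, the carrier of NAD, at 52.4%. Slc25a35 at 49.6%, Slc25a34 at 48.5% and the iron carrier Slc25a37 at 42.2% followed. The median over the 39 members was 19.9%. The members with a large spread are those in which a difference of a given size is hardest to see with 5 mice.

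The family as a whole took a small share of the transcriptome. Its summed level was 1234 ± 30.5 FPKM at 3 months, 1156 ± 35.3 at 12 months and 1194 ± 114 at 24 months (SD, n = 5 each). As a share of the FPKM of all genes this was 0.560% ± 0.0219, 0.507% ± 0.0274 and 0.551% ± 0.0431. The 12-month mice lay between 0.483% and 0.549% and the 3-month mice between 0.535% and 0.591%, so those ages overlapped in a narrow band. The widest range was that of the 24-month mice, from 0.508% in mouse 35 to 0.617% in mouse 32. These sums are given as a description, with no test.

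The comparison of 24 with 3 months asks which carriers differ between old and young kidneys. All 51 members were tested, and none reached an adjusted p under 0.05 in limma, which 386 of 31755 genes (1.22%) did. At an unadjusted p under 0.05, 3 members were higher and 4 were lower at 24 months. That is 13.7% of the members, near the 14.9% of all genes tested that passed the same limit. By direction, 11.4% of all genes were higher and 3.47% lower, against 3 higher and 4 lower carriers. The higher ones were Slc25a42, Slc25a40 and Slc25a53, and the lower ones were Slc25a30, Slc25a16, Slc25a51 and Slc25a45. The ages did not overlap for 2 members, Slc25a42 and Slc25a53, against 4.73% of all genes. The median log2 fold change was 0.02 over the members and 0.02 over all genes. The counts describe the members; no test was made of the list.

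**Figure D2:**
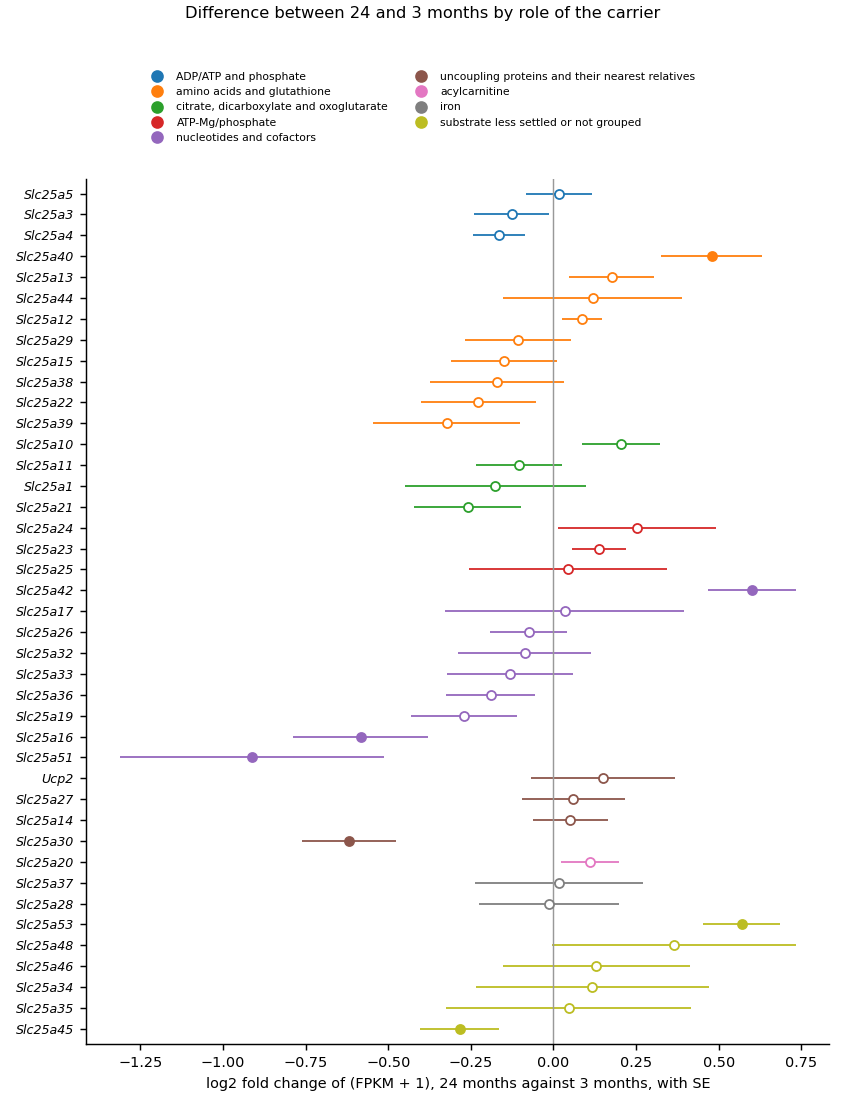
Log2 fold change of (FPKM + 1) between 24 and 3 months for the 41 members that averaged at least 1 FPKM in those 10 mice, with SE, in colours by role. Filled points have an unadjusted p under 0.05: Slc25a42, Slc25a53 and Slc25a40 lie to the right of 0, and Slc25a51, Slc25a30, Slc25a16 and Slc25a45 to the left.

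Slc25a30, also called kidney mitochondrial carrier protein 1, is a near relative of the uncoupling proteins. Its level in the 3-month mice 5 to 9 was 31.1, 24.4, 21.5, 28.1 and 31.9 FPKM. In the 12-month mice 17 to 21 it was 21.8, 18.1, 22.2, 17.5 and 18.6 FPKM, and in the 24-month mice 31 to 35 it was 22.4, 17.4, 13.9, 17.9 and 15.9 FPKM. Mouse 31 alone kept the ages from separating, since it lay above the lowest young mouse. The means were 27.4 ± 4.42, 19.6 ± 2.17 and 17.5 ± 3.18 FPKM (SD, n = 5 each), and the old mean was 0.639 of the young one. The log2 fold change of 24 against 3 months was -0.62 ± 0.14 (SE), and limma gave an unadjusted p of 0.00157 (adjusted p = 0.0734). The adjusted p ranged from 0.0279 to 0.144 over the alternatives and was lowest with all 15 mice in 1 fit. At 12 months the gene was already lower than at 3 months, by a log2 fold change of -0.45 ± 0.12 and an unadjusted p of 0.0038 (adjusted p = 0.136). Over the 3 ages it had the smallest p of the F test among the members, 0.000956 (adjusted p = 0.0583). Of the 4 proximal tubule markers 1, Slc5a2 of the early proximal tubule, was lower in the same mice at an unadjusted p under 0.05 (limma). Slc34a1, Lrp2 and Slc22a6 were not called, and the part of these cells in the difference was not tested.

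The lower level of Slc25a30 was seen in the mean of its coding transcript and in that of its others. ENSMUST00000022580, with 10 exons, is the only one of its 5 transcripts that GENCODE types as protein-coding, and it averaged 19.3 ± 3.43 FPKM at 3 months, 14.6 ± 2.86 at 12 months and 11.7 ± 1.88 at 24 months. The other 4, assembled from the reads, summed to 8.09, 4.98 and 5.81 FPKM. These 4 overlapped between 3 and 24 months, with 5.24 FPKM in mouse 6 and 8.18 in mouse 31, and were not tested alone. The log2 fold change of Slc25a30 at 24 against 3 months was -0.67 ± 0.15 when gene levels were summed over protein-coding transcripts alone (unadjusted p = 0.00134, limma). The gene lies on the reverse strand of chromosome 14 and its transcripts span 75755331 to 75787037 in GRCm38. The start of the coding transcript is that of the RefSeq promoter entry, which is printed here from 250 bases before to 50 bases after the start (chr14:75786988-75787287, reverse strand) because the gene is the carrier with the lowest p over the 3 ages. Capitals mark a CCAAT box (CCAAT) and a GC box (GGGCGG), sought on both strands.
Slc25a30 promoter: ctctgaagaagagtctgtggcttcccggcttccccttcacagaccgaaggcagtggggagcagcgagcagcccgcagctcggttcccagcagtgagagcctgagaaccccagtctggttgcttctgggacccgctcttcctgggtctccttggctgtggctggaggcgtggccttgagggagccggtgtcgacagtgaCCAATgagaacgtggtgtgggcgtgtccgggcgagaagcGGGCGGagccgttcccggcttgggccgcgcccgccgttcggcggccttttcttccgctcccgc

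Slc25a42 brings coenzyme A into the matrix in exchange for adenine nucleotides. Its level in mice 5 to 9 was 37.5, 34.8, 36.1, 33.4 and 36.6 FPKM. At 12 months it was 32.9, 40.7, 43.7, 52.1 and 27.3 FPKM, and at 24 months 53.9, 74.6, 54.0, 54.4 and 40.8 FPKM. Every old mouse lay above every young one, and the 12-month mice spread over both. The means were 35.7 ± 1.602, 39.4 ± 9.60 and 55.5 ± 12.1 FPKM, and the old mean was 1.56 times the young one. The log2 fold change of 24 against 3 months was 0.60 ± 0.13 (unadjusted p = 0.00124, adjusted p = 0.0672, limma), and without mouse 35 the adjusted p was 0.0358, the lowest of its alternatives, which reached 0.135. Between 12 and 24 months the log2 fold change was 0.49 ± 0.19 (unadjusted p = 0.0297, adjusted p = 0.747). This unadjusted p did not stay under 0.05 without mouse 17, 21 or 32 in turn.

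As with Slc25a30, the means of coding and of other transcripts differed in the same direction. The 2 protein-coding transcripts of Slc25a42 together averaged 22.7 ± 1.86 FPKM at 3 months and 36.6 ± 7.40 at 24 months (unadjusted p = 0.000608, adjusted p = 0.0638, limma), and they made up 63.7% of the gene at 3 months and 65.9% at 24 months. The other 3 transcripts summed to 12.9 FPKM at 3 months and 18.96 at 24 months. Their ages overlapped, with 11.06 FPKM in mouse 35 and 11.13 in mouse 9, and they were not tested alone. The main transcript of the gene, ENSMUST00000063788, has 9 exons. The gene lies on the reverse strand of chromosome 8, with transcripts from 70184340 to 70212305 in GRCm38, and the RefSeq promoter entry nearest to its main transcript starts 25 bases away. It is printed (chr8:70212232-70212531, reverse strand) beside that of Slc25a30 so that the pair with opposite differences can be compared, with the same boxes in capitals.
Slc25a42 promoter: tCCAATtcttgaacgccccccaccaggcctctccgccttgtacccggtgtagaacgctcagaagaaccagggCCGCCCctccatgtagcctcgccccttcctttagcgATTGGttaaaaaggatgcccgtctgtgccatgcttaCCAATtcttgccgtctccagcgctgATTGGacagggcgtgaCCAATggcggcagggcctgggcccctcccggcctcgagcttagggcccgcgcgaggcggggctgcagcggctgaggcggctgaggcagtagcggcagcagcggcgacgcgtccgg

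The promoters share a high content of G and C, 66.7% for Slc25a30 and 65.7% for Slc25a42, against a median of 52.7% over 32817 RefSeq promoters of the same length. The Slc25a30 window holds 1 CCAAT box and that of Slc25a42 holds 5, counting ATTGG as the same box on the other strand. Each holds 1 GC box. A CCAAT box was present in 37.4% of all promoters and in 44.9% of the 49 promoters that 39 of the 51 members have in the table. A GC box was present in 35.6% of all promoters and 79.6% of those of the members, and a TATA box (TATAAA) in 13.6% and 4.08%. Neither window held an E-box (CACGTG, in 7.15% of all promoters and 16.3% of those of members) or the AAGGTCA element of estrogen-related receptors (4.72% and 2.04%). A match of letters is a description of the sequence and not of binding.

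Slc25a53, an X-linked member whose substrate is not settled, was the carrier with the smallest p between 3 and 24 months. Its level was 1.23, 0.807, 1.16, 0.699 and 0.940 FPKM in mice 5 to 9, and 2.27, 1.67, 1.99, 1.99 and 1.64 FPKM in mice 31 to 35. The ages did not overlap, and the 12-month mice, at 1.57, 2.04, 1.08, 1.12 and 1.71 FPKM, fell on both sides. The means were 0.968 ± 0.226, 1.502 ± 0.406 and 1.91 ± 0.258 FPKM. The log2 fold change of 24 against 3 months was 0.57 ± 0.12 (unadjusted p = 0.000708, adjusted p = 0.0533, limma), and with a pseudocount of 1 it understates the ratio of the means, 1.98.

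Little of this difference was in transcripts that encode the carrier. GENCODE types 4 of the 12 transcripts of Slc25a53 as protein-coding, and these summed to 0.176 ± 0.0332 FPKM at 3 months and 0.230 ± 0.0868 at 24 months. The other 8, typed as processed transcripts or retained introns, summed to 0.791 FPKM at 3 months, 1.31 at 12 months and 1.68 at 24 months. With protein-coding transcripts alone, an alternative added after these values were seen, the log2 fold change was 0.06 ± 0.05 with an unadjusted p of 0.218 (adjusted p = 0.620). The transcript that differed most was ENSMUST00000132171, a retained-intron form of 2 exons, with 0.127 FPKM at 3 months and 0.646 at 24 months (adjusted p = 0.239 among all transcripts).

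Slc25a40, the paralog of the glutathione carrier Slc25a39, also differed mainly outside its coding transcripts. Its level was 4.89, 3.77, 5.01, 3.13 and 6.13 FPKM at 3 months, 4.80, 5.12, 5.81, 6.49 and 5.34 FPKM at 12 months, and 7.39, 5.16, 7.25, 6.64 and 7.00 FPKM at 24 months. Mouse 9 was the only young animal within the range of the old ones. The log2 fold change of 24 against 3 months was 0.48 ± 0.15 (unadjusted p = 0.0115, adjusted p = 0.179, limma). The 3 protein-coding transcripts, however, made up 27.5% of the gene at 3 months, 20.1% at 12 months and 11.4% at 24 months. They averaged 1.26 ± 1.29 FPKM at 3 months, with 3.49 FPKM in mouse 9 and at most 1.13 in the other young mice, and 0.763 ± 0.293 at 24 months, and the log2 fold change over them alone was -0.22 ± 0.31 (unadjusted p = 0.486). The other 5 transcripts summed to 3.32 FPKM at 3 months and 5.93 at 24 months.

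**Figure D3:**
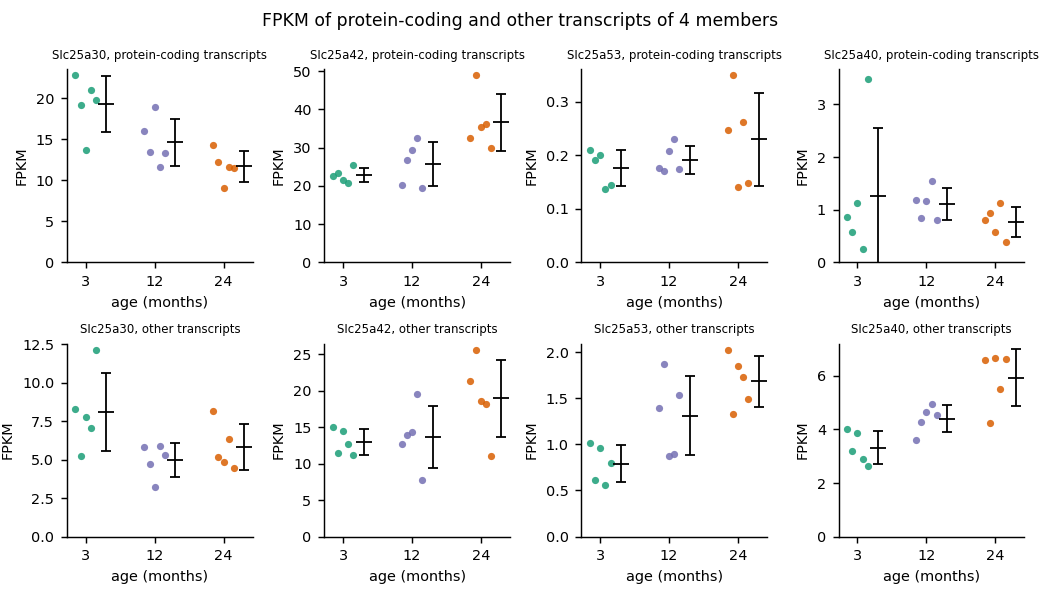
FPKM of the protein-coding transcripts (upper row) and of all other transcripts (lower row) of Slc25a30, Slc25a42, Slc25a53 and Slc25a40 by age. Points are mice, and the bar beside them is the mean with SD (n = 5; the lower bar of the coding transcripts of Slc25a40 at 3 months is cut at 0). The coding transcripts of Slc25a30 are lower and those of Slc25a42 higher at 24 months, while the levels of Slc25a53 and Slc25a40 sit mainly in the lower row.

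Retained-intron transcripts were looked at over the family for that reason. Their share is weighted by level, so Slc25a53 and Slc25a40, with 0.122% and 0.468% of the family FPKM over the 15 mice, weigh little in it. In the members retained-intron transcripts took 7.19% ± 0.537 of the summed FPKM at 3 months, 8.12% ± 0.539 at 12 months and 8.43% ± 0.567 at 24 months. The 3-month mice lay between 6.53% and 7.77% and the 24-month mice between 7.84% and 9.02%, without overlap. Over all genes the share was 5.38% ± 0.386 at 3 months and 5.69% ± 0.200 at 24 months, which overlapped (exact permutation test over the 10 mice, 2-sided, p = 0.151). The share of the family in protein-coding transcripts was 75.6% ± 1.99 at 3 months and 75.1% ± 2.14 at 24 months. Over all genes that share was 63.2% ± 1.04 at 3 months and 60.9% ± 1.41 at 24 months (exact permutation test, 2-sided, p = 0.0159). How the assembler divides reads among overlapping transcripts decides these shares, and its part was not tested. Whether the members differed from all genes in these shares was not tested either.

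Of the lower members at 24 months, Slc25a16, which has been tied to coenzyme A transport, measured 28.1, 32.96, 29.2, 33.5 and 28.5 FPKM at 3 months. At 12 months it lay apart in some mice, with 14.99 FPKM in mouse 17 and 12.0 in mouse 19 but 31.5, 29.2 and 27.0 in mice 18, 20 and 21. At 24 months it was 27.1, 17.97, 17.1, 29.4 and 12.7 FPKM. The log2 fold change of 24 against 3 months was -0.58 ± 0.20 (unadjusted p = 0.0177, adjusted p = 0.215, limma), and it was -0.60 ± 0.22 over the protein-coding transcripts. Its SD of 2.58 FPKM at 3 months became 8.82 at 12 months and 7.09 at 24 months, and an exact rank-sum test gave p = 0.0556.

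Slc25a51, the carrier of NAD, had the largest log2 fold change of the family, -0.91 ± 0.40, with an unadjusted p of 0.0462 (adjusted p = 0.324, limma). It rested on few mice. The level at 3 months was 12.9, 11.3, 47.3, 24.9 and 13.8 FPKM, and at 24 months 13.8, 12.96, 5.06, 10.4 and 8.44 FPKM. Mice 7 and 8 stood well above all old ones, mouse 9 lay just above the highest old mouse, and mice 5 and 6 lay within the old range. Without mouse 7, 8, 33, 34 or 35 the unadjusted p was no longer under 0.05, and the exact rank-sum test gave p = 0.0952. Over its protein-coding transcripts the log2 fold change was -0.77 ± 0.59 (unadjusted p = 0.223). Slc25a45 was lower by a log2 fold change of -0.28 ± 0.12 (unadjusted p = 0.0407, adjusted p = 0.306), a call that held without only 3 of the 10 mice and was lost under TPM, with class code = alone and over protein-coding transcripts (unadjusted p = 0.143).

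**Figure D4:**
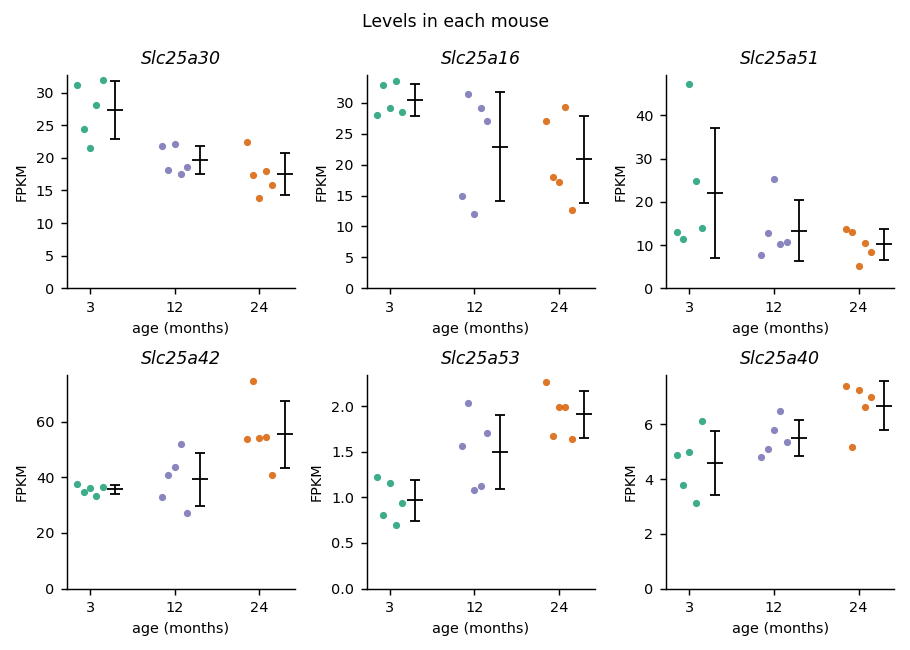
FPKM of 6 carrier genes in each mouse by age, with the mean and SD (n = 5) beside the points. Slc25a30, Slc25a16 and Slc25a51 (upper row) are lower at 24 months, and Slc25a42, Slc25a53 and Slc25a40 (lower row) are higher, with no overlap of 3 and 24 months for Slc25a42 and Slc25a53.

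The most abundant members other than Slc25a42 gave no call between 3 and 24 months with all 10 mice. Slc25a5 was 312, 311, 297, 284 and 298 FPKM at 3 months and 289, 300, 293, 339 and 300 FPKM at 24 months, a log2 fold change of 0.02 ± 0.10 whose sign turned under another scaling. Slc25a3 had -0.13 ± 0.11 and Slc25a39 had -0.32 ± 0.22. Without mouse 32, the highest old mouse for both, these were -0.22 (unadjusted p = 0.0275) and -0.48 (unadjusted p = 0.0344). Slc25a39 varied widely, between 96.6 and 206 FPKM among the old mice. Slc25a10 had 0.20 ± 0.12 and Slc25a25 had 0.04 ± 0.30. Their unadjusted p lay between 0.113 and 0.886. Slc25a25 ran from 9.53 FPKM in mouse 21 to 65.7 in mouse 34, its sign too depended on single mice, and without mouse 35 it had 0.34 (unadjusted p = 0.0453).

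Among the uncoupling proteins only Ucp2, which is found in many tissues, was well measured. It averaged 24.6 ± 9.57, 25.7 ± 5.83 and 26.1 ± 2.47 FPKM at the 3 ages, with a log2 fold change of 0.15 ± 0.22 between 24 and 3 months (unadjusted p = 0.505). Ucp3, the form of skeletal muscle, stayed at or below 0.322 FPKM in every mouse. Ucp1 was at 1.23 and 0.971 FPKM in mice 5 and 8 and at or below 0.00496 FPKM in the other 3 young ones. It was at or below 0.351 FPKM at 12 months, and at 24 months it was 1.25 FPKM in mouse 34 and at most 0.306 FPKM in the rest. The brown fat gene Cidea was 0.782 FPKM in mouse 5, 0.809 in mouse 8 and 0.539 in mouse 34, and at 0.218 FPKM or below in the remaining mice except mouse 9, where it was 0.648. The 11 markers of white and brown fat summed to between 2.52 and 11.8 FPKM per mouse and were highest in mouse 17. Whether Ucp1 came from fat left on the kidney was not tested. Slc25a14 and Slc25a27, brain relatives of the uncoupling proteins, averaged 1.82 and 0.9952 FPKM.

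By role, calls at an unadjusted p under 0.05 between 24 and 3 months fell in 4 of the 9 groups. These calls were 13.7% of all members, near the 14.9% of all genes (11.4% higher and 3.47% lower). The counts by role are therefore a description, and no role was tested. Of the 9 members that carry nucleotides and cofactors, Slc25a42 was higher and Slc25a16 and Slc25a51 lower, with a median log2 fold change of -0.13. Of the 11 carriers of amino acids and glutathione, Slc25a40 was higher and none lower (median -0.01). Of the 6 uncoupling proteins and relatives, Slc25a30 was lower (median 0.06). Slc25a53 and Slc25a45 were the calls among the 9 members with a less settled substrate (median 0.12). None of the 4 carriers of ADP/ATP and phosphate, the 5 of ATP-Mg and phosphate, the 4 of citrate, dicarboxylates and oxoglutarate, the 2 of iron and the acylcarnitine carrier Slc25a20 passed, with unadjusted p in limma down to 0.0642 for Slc25a4.

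The 12-month mice show where in adult life the differences lay. They share the 3-month animals with the comparison above, so the comparisons are not independent. Against 3 months, Slc25a53 was higher and Slc25a30 and Slc25a29, a carrier of basic amino acids, were lower at an unadjusted p under 0.05, which is 5.88% of the members beside 14.3% of 31637 genes (11.4% higher and 2.9% lower). The ages did not overlap for 0 members and for 4.11% of all genes. No member had an adjusted p under 0.05, as 0.25% of all genes did. Slc25a29 was 0.988, 0.825, 1.57, 1.53 and 1.13 FPKM at 3 months and 0.418, 0.643, 0.505, 1.14 and 0.8286 FPKM at 12 months, with a log2 fold change of -0.37 ± 0.15 (unadjusted p = 0.033), a call that held without only 5 of the 10 mice. Slc25a53 had 0.34 ± 0.14 (unadjusted p = 0.0396), which was lost under TPM, median-of-ratios scaling, all class codes and protein-coding transcripts alone, and held without only 4 of the 10 mice. Slc25a48 stood at 0.69 ± 0.31 (unadjusted p = 0.0515), Slc25a15, the ornithine carrier of the liver and kidney, at -0.20 ± 0.09 (0.0508), Slc25a40 at 0.24 ± 0.15 (0.134) and Slc25a16 at -0.48 ± 0.25 (0.0849).

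Against 12 months, 3 members were higher and 2 were lower at 24 months at an unadjusted p under 0.05, 9.8% of the members beside 6.43% of 32282 genes (3.07% higher and 3.36% lower). The ages did not overlap for 0 members and for 1.07% of all genes. The adjusted p of each was at least 0.689, and 1 gene of the whole table (0.0031%) passed. Slc25a28, the iron carrier mitoferrin-2, was 5.07, 4.55, 4.98, 4.98 and 5.65 FPKM at 12 months and 5.24, 5.80, 6.71, 8.01 and 8.21 FPKM at 24 months (log2 fold change 0.35 ± 0.12, unadjusted p = 0.0135). This call was lost with class code = alone, with all 15 mice in 1 fit and over protein-coding transcripts. Its 3-month mice reached 11.9 FPKM, and its log2 fold change of 24 against 3 months was -0.01 ± 0.21. Slc25a21, which carries oxoadipate and other oxodicarboxylates, was 7.12, 6.51, 6.77, 6.82 and 5.46 FPKM at 12 months and 5.88, 4.98, 5.47, 5.17 and 4.93 FPKM at 24 months (-0.26 ± 0.08, unadjusted p = 0.00807), a call lost with all 15 mice in 1 fit. Slc25a42 is given above. Slc25a40 had 0.24 ± 0.10 (0.0478) and Slc25a4 had -0.16 ± 0.07 (0.0479), and each of these calls held without only 2 of the 10 mice and was lost under most other settings, those over protein-coding transcripts included. Slc25a26, which carries S-adenosylmethionine, had -0.14 ± 0.08 (0.097). An F test over the 3 ages had an unadjusted p under 0.05 for 4 of 51 members, Slc25a30, Slc25a53, Slc25a42 and Slc25a40, against 14.7% of 33058 genes, and an adjusted p under 0.05 for none, against 1.47%.

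Paralogs that share a substrate were compared by their share within each mouse, which does not depend on how a library was scaled. Slc25a4 made up 8.84% ± 0.823 of Slc25a4 and Slc25a5 at 3 months, 9.22% ± 0.777 at 12 months and 7.86% ± 0.891 at 24 months. The difference of 1.36 percentage points between 12 and 24 months had an exact permutation p of 0.0397 (2-sided), and 0.298 after adjustment over the 15 tests of 5 pairs and 3 comparisons. Reads of Slc25a5 may also fall on its processed copies, so this share is uncertain. Slc25a39 made up 97.3% ± 0.766 of Slc25a39 and Slc25a40 at 3 months, 96.5% ± 0.936 at 12 months and 95.01% ± 1.64 at 24 months, with an exact permutation p of 0.0317 for 24 against 3 months and an adjusted p of 0.298. All shares here count coding and other transcripts together. Over protein-coding transcripts alone both genes had lower means at 24 than at 3 months. These were 144 and 110 FPKM for Slc25a39 and 1.26 and 0.763 FPKM for Slc25a40. Shares over coding transcripts were not tested. The other pairs had exact permutation p of 0.127 or more in each comparison. Slc25a12 made up 38.2% ± 3.41 of the aspartate and glutamate carriers Slc25a12 and Slc25a13 at 3 months and 36.7% ± 3.73 at 24 months. Slc25a28 made up 55.1% ± 7.38 and 54.5% ± 14.6 of the mitoferrins Slc25a28 and Slc25a37. Slc25a18 made up 11.6% ± 4.48 and 12.9% ± 1.65 of the glutamate carriers Slc25a18 and Slc25a22. The smallest p that 5 against 5 mice can give is 0.00794.

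Single transcripts were compared between 24 and 3 months and called where the unadjusted p was under 0.05 with a log2 fold change beyond 1 in either direction, which 992 of 124719 transcripts (0.795%) passed. Of the 295 transcripts of the members 288 were tested and none passed; 15 were higher and 8 lower at an unadjusted p under 0.05 alone, beside 5.43% of all transcripts higher and 2.47% lower, and the smallest adjusted p was 0.222, for ENSMUST00000063788 of Slc25a42.

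Circular RNAs give a second readout of the same genes from the same libraries. A circular RNA arises when the end of an exon is joined backwards to the start of the same or an earlier exon, and without free ends it is slow to decay. The table of 11929 circular RNAs held 14 from 9 members: 12 made of exons, from Slc25a13, Slc25a15, Slc25a16, Slc25a21, Slc25a26, Slc25a30, Slc25a36 and Slc25a42, and 2 made of an intron of Slc25a25. The most abundant was circRNA7515 of Slc25a21 with 625 CPM (estimated counts scaled to a fixed library total) over the 15 mice, followed by circRNA6253 of Slc25a36 with 381 and circRNA10053 of Slc25a13 with 365.

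Between 24 and 3 months 3 of the 14 had an adjusted p under 0.05 in edgeR, beside 13.3% of 11924 circular RNAs tested. They came from Slc25a30 and Slc25a42. The circle circRNA1669 joins exon 4 of Slc25a30 back to exon 3 (chr14:75771439-75775142), circRNA2597 joins exon 5 back to exon 4 (chr14:75770171-75771533), and circRNA8746 joins exon 7 of Slc25a42 back to exon 4 (chr8:70188300-70190088). All exons named are coding, and the circles are 243, 181 and 462 bases long. The 30 bases around each back-splice junction are given from the GENCODE transcripts, with the end of the later exon in lower case and the start of the earlier exon in capitals.
circRNA1669: tggaacgcccagaagGCACATTTCCAATTG
circRNA2597: actgatgttttgaaaGATTGCACCCGCAAT
circRNA8746: agagcctgcaccgagTGTCTTCAAAAAGAT

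The circles of Slc25a30 were lower at 24 than at 3 months, with 12-month means near those of 24 months. In CPM, circRNA1669 was at 167, 133, 187, 169 and 203 at 3 months, 105, 85.1, 122, 136 and 90.3 at 12 months, and 142, 126, 86.7, 101 and 98.6 at 24 months. Mouse 6 was the lowest young mouse and overlapped with mouse 31. The log2 fold change of 24 against 3 months was -0.71, with an adjusted p of 0.00853 in edgeR. circRNA2597 went from 85.7 ± 9.08 at 3 months to 61.3 ± 17.97 at 12 months and 59.8 ± 11.7 at 24 months (log2 fold change -0.60, adjusted p = 0.0118). The circle of Slc25a42 was higher at 24 than at 3 months. It was at 102, 101, 110, 108 and 125 at 3 months, 103, 133, 127, 165 and 94.1 at 12 months, and 170, 229, 175, 161 and 119 at 24 months, with a log2 fold change of 0.57 and an adjusted p of 0.0221, and only mouse 35 lay within the young range. Without mouse 33 its adjusted p was 0.054, although its log2 fold change was still 0.56.

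**Figure D5:**
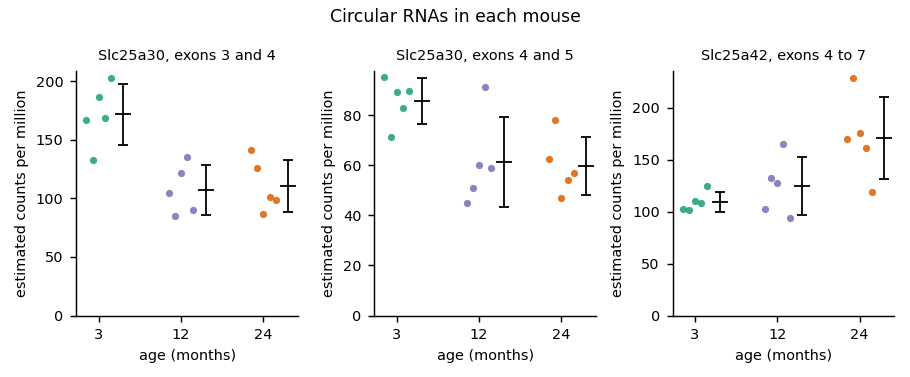
CPM of 3 circular RNAs in each mouse by age, with the mean and SD (n = 5). The circles of Slc25a30 average 172 and 85.7 at 3 months and 111 and 59.8 at 24 months, and that of Slc25a42 averages 109 and 171.

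Set side by side, the linear log2 fold change was -0.62 for Slc25a30 and its circles had -0.71 and -0.60, and the linear value was 0.60 for Slc25a42 and its circle had 0.57. In Slc25a16, in contrast, the linear value was -0.58 and circRNA2477 had 0.02 (adjusted p = 0.897). The remaining circles had adjusted p between 0.122 and 0.908. The linear and the circular values come from the same libraries, and they were normalized in separate tables. How reads were assigned to a circle is not given in the sources used here. At 3 months circRNA1669 was listed at 160 FPKM where linear Slc25a30 was listed at 27.4 FPKM. The most abundant circle, circRNA7515, was at 324 FPKM where linear Slc25a21 was at 6.70 FPKM. Both intronic circles of Slc25a25 lay below their host, at 19.1 and 21.2 FPKM against 46.6. Whether exonic reads are shared between the readouts was not tested.

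Genes that work beside the carriers were counted from lists. These counts stand beside 11.4% of all genes higher and 3.47% lower at an unadjusted p under 0.05 between 24 and 3 months. Of 30 enzymes on either side of the carriers, 3 were lower and none higher at that limit (median log2 fold change -0.02). Gatm, which makes the precursor of creatine, went from 247 ± 59.7 to 146 ± 10.7 FPKM (-0.72 ± 0.18, adjusted p = 0.0864, limma). Alas1, which starts heme synthesis from glycine and succinyl-CoA, went from 86.8 ± 21.2 to 47.9 ± 12.2 FPKM (-0.85 ± 0.21, adjusted p = 0.0936). The third was Glud1, glutamate dehydrogenase (-0.29 ± 0.12, adjusted p = 0.295). Of 23 mitochondrial transporters outside the family, 1 was higher, Mcub, the inhibitory partner of the calcium uniporter, at 0.254 ± 0.0753 and 0.528 ± 0.0908 FPKM (0.29 ± 0.06, adjusted p = 0.0629); Mpc1, a subunit of the pyruvate carrier, had 0.41 ± 0.18 (unadjusted p = 0.0511). Of the 13 parts of the machinery that imports carriers, Timm13 was lower (5.06 ± 1.66 and 2.98 ± 0.629 FPKM, -0.57 ± 0.21, adjusted p = 0.227) and Agk had 0.22 ± 0.10 (unadjusted p = 0.05). Of 12 regulators of mitochondrial genes, 2 were higher: Tfam, which packs and transcribes mitochondrial DNA, from 4.95 ± 0.296 to 6.41 ± 0.562 FPKM (0.32 ± 0.07, adjusted p = 0.0712), and the coactivator Ppargc1b (0.38 ± 0.15, adjusted p = 0.263). None of the genes in these lists had an adjusted p under 0.05.

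Cell markers were counted in the same mice, and none had an adjusted p under 0.05 between 24 and 3 months. Their calls at an unadjusted p under 0.05 stand beside 11.4% of all genes higher and 3.47% lower. Of 8 leukocyte and macrophage markers 5 (Ptprc, Cd3e, Cd79a, Ms4a1 and Jchain) were higher at 24 than at 3 months at an unadjusted p under 0.05, and their sum ran from 11.5 to 22.3 FPKM at 3 months and from 18.98 to 33.2 FPKM at 24 months. Of 4 proximal tubule markers 1 was lower, and their sum ran from 1353 to 1698 FPKM at 3 months and from 1219 to 1576 FPKM at 24 months. The stroma markers summed to between 10.2 and 24.7 FPKM at 3 months and to between 18.9 and 29.7 at 24 months, with 1 of 3 (Pdgfrb) higher, as was 1 of 3 endothelial markers (Pecam1). The red blood cell markers summed to between 486 and 1391 FPKM at 3 months and to between 260 and 1033 FPKM at 24 months, with no call. Of 4 adrenal markers 1 (Star) was higher, with sums of at most 3.25 FPKM. No marker of the thick ascending limb, distal convoluted tubule, collecting duct, podocyte, fat or muscle was called. The part of the cell makeup in the differences of the carriers was not tested.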

How the data were processed

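Kidney RNA of 15 male mice, 5 at each of 3 ages, had been sequenced, 1 library per mouse per the labels; the methods speak of pooled RNA. Samples were grouped by the age given in their labels; the titles begin with 3M at all ages, and the column names carry the age of the label. Per the study's methods and labels, the authors trimmed reads, mapped them to GRCm38 with the Ensembl annotation, and assembled and merged transcripts with StringTie. The methods name HISAT2 and the submitters' processing notes name TopHat2. The deposited FPKM of each transcript is scaled to its own library, so a few abundant transcripts can shift the rest. The deposited coverage gave, divided by FPKM, the aligned bases of each library; this signal was used for nothing else. For circular RNAs the deposited tables hold estimated counts and FPKM, made by steps not given in the sources used here. Of the non-zero estimated counts, 89.3% were not whole, so values were rounded. No column belonged to another sample.

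FPKM was summed per gene over class codes =, c, j and o, and log2(FPKM + 1) was compared with limma 3.58.1 (trend = TRUE, R 4.3.3) over the mice of the 2 ages compared, with an F test over all 15 mice. Fold changes on this scale understate those of low genes. Genes above 0 in at least 1 mouse were tested, and p-values were adjusted over all genes (Benjamini-Hochberg). Class code = was also used alone, as were all codes. Circular RNAs above 0 in at least 5 of 10 mice were tested with edgeR 4.0.16 (quasi-likelihood, TMM), with DESeq2 1.42.0 as the alternative. Shares of paralogs were compared by exact permutation over 252 assignments, 2-sided. Each fit was tested on simulated data. Alternatives were a pseudocount of 0.1, a mean of at least 1 FPKM, TPM, median-of-ratios scaling, all 15 mice in 1 fit, a robust prior, a rank-sum test and each mouse left out. Transcript types came from GENCODE M21 on GRCm38, which typed all 237 annotated transcripts of the members. Python 3.11.15 was used for the rest.

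The members, the lists and the tests were chosen with earlier results of these data known. The genes named are the 6 most abundant members, the 3 of lowest p per direction and comparison among those with a mean of at least 1 FPKM, the uncoupling proteins, Slc25a30, the paralog pairs, members with an adjusted p under 0.05, and the 2 genes with the smallest p of each pathway list; circular RNAs are the 3 most abundant and those with an adjusted p under 0.05. Slc25a51, Slc25a29, Glud1, the markers named, the members given for their level or spread, circRNA2477, the retained-intron shares, and the transcript types were added after their values were seen. Slc25a52 was not analysed here. P-values weigh a difference between ages against the spread between mice.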

Additional observations from a re-analysis of the deposited data

Results flagged for a closer look

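Of 102 groups of 5 mice examined for a value far from the other 4, 8 had one, and chance alone gives about 1 in 20. All but 1 were at 24 months. Mouse 34 had the highest Slc25a5, 339 FPKM with the next mouse at 300.0, the highest Ucp1, 1.25 against 0.306 FPKM, and the highest Ucp3, 0.322 against 0.152 FPKM. Mouse 35 had the lowest Slc25a45, 3.26 FPKM with the next at 4.19, and the lowest Slc25a25, 20.2 against 53.6 FPKM. Mouse 32 had the highest Slc25a3, 207 against 160 FPKM, and the lowest Slc25a15, 9.59 against 15.6 FPKM. At 12 months, mouse 17 had the lowest Slc25a4, 26.7 FPKM with the next at 29.3. The calls between 3 and 24 months for Slc25a30, Slc25a42, Slc25a53, Slc25a40 and Slc25a16 at an unadjusted p under 0.05 held without each of the 10 mice in turn.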

How the results depend on the processing

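No paired analysis was possible because the ages are different mice, each with 1 library. For 24 against 3 months, the count of members higher at an unadjusted p under 0.05 was 3 and lower 4. Requiring an absolute log2 fold change above 1 left 0 and 0, and the rank-sum test left 1 lower. Protein-coding transcripts alone, an alternative chosen after seeing the data, gave 2 higher and 2 lower. Of the 3 higher calls only that of Slc25a42 held there. The other higher call was Ucp3, at 0.0646 FPKM at 24 months (unadjusted p = 0.0388, limma). Members with an adjusted p under 0.05 were 0, but 1 under a pseudocount of 0.1, a mean of at least 1 FPKM, TPM or the robust prior (Slc25a53 in each) and 2 with all 15 mice in 1 fit (Slc25a53 and Slc25a30). For 12 against 3 months, 1 higher member became 2 under the pseudocount of 0.1, the mean of at least 1 FPKM, class code = alone, all 15 mice, the robust prior and protein-coding transcripts, and 0 under TPM, median-of-ratios scaling, all class codes, the limit on fold change and the rank-sum test; 2 lower members became 4 under TPM, median-of-ratios scaling and protein-coding transcripts, 1 under the mean of at least 1 FPKM and the rank-sum test, and 0 under the limit on fold change. For 24 against 12 months, 3 higher members became 1 with all 15 mice and 0 under the limit on fold change, and 2 lower members became 1 under the pseudocount, the mean of at least 1 FPKM, TPM, median-of-ratios scaling, all class codes, all 15 mice, the robust prior and the rank-sum test, and 0 under the limit. The F test had 0 members at an adjusted p under 0.05, and 1, Slc25a30, under the mean of at least 1 FPKM and under median-of-ratios scaling. Called transcripts went from 0 to 10 with the pseudocount of 0.1, 1 with the mean of at least 1 FPKM and 4 under TPM. The causes were not tested.

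With each mouse left out, higher and lower members ranged from 3 to 4 and 2 to 7 (24 against 3 months), 0 to 1 and 1 to 3 (12 against 3) and 1 to 3 and 1 to 4 (24 against 12); members with an adjusted p under 0.05 from 0 to 1, 0 to 0 and 0 to 0. The F test ranged from 4 to 7 and, adjusted, from 0 to 1, called transcripts from 0 to 2 and circular RNAs from 2 to 4.

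In percentage points, the share of Slc25a12 differed between 24 and 12 months by -4.11, and by -13.1 (exact permutation p = 0.0476) with class code = alone; that of Slc25a18 went from 1.29 to -2.61 with all class codes (24 against 3) and from -0.588 to 0.145 with class code = (24 against 12). With mice left out, the shares of Slc25a4 ranged from -1.26 to -0.7001, 0.107 to 0.688 and -1.67 to -1.08 (24 against 3, 12 against 3, 24 against 12), those of Slc25a12 from -2.59 to -0.398, 1.10 to 3.57 and -5.24 to -2.56, those of Slc25a28 from -4.90 to 3.04, -9.52 to -2.27 and 0.535 to 8.91, those of Slc25a39 from -2.95 to -1.95, -1.08 to -0.485 and -2.15 to -1.16, and those of Slc25a18 from 0.340 to 2.78, 0.927 to 3.37 and -1.66 to 0.234. The family took 0.597%, 0.539% and 0.604% of all gene FPKM at 3, 12 and 24 months with class code = alone.

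Signs turned for Slc25a5 under median-of-ratios scaling (-0.0266) and without single mice (-0.0231 to 0.0339), for Slc25a25 with all class codes (-0.00839) and without single mice (-0.0721 to 0.341), for Ucp1 without single mice (-0.16 to 0.20), and over protein-coding transcripts for Slc25a40 (-0.22 at 24 against 3 months and -0.26 at 24 against 12) and Slc25a15 (0.37 at 12 against 3). Of all genes called at an unadjusted p under 0.05, 79.8% were higher at 12 than at 3 months, 72.4% under TPM and 66.7% under median-of-ratios scaling; at 24 against 12 months these were 47.7%, 66.2% and 56.1%, and at 24 against 3 months 76.7%, 79.2% and 69.4%.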

Other observations

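Not every member present at a low level was alike. Slc25a18, the glutamate carrier of the brain, averaged 0.941 FPKM and had a coefficient of variation of 15.5%, and Slc25a47, a carrier of the liver, averaged 0.563 FPKM and had one of 18.8%. Slc25a41 and Slc25a54, relatives of the ATP-Mg and phosphate carriers, were listed at 0 in 10 and 11 of the 15 mice. Slc25a2 was listed at 0 in 12 mice. Slc25a46, which acts at the outer membrane, averaged 6.02 FPKM, and mouse 34 alone had 14.3 FPKM of it.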
